A study of Rattus norvegicus with 170 samples.

Results

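The Polycomb and DNA methylation maintenance genes described here are 10 genes chosen by name, *Ezh1*, *Ezh2*, *Eed*, *Suz12*, *Bmi1*, *Uhrf1*, *Dnmt1*, *Dnmt3a*, *Hells* and *Kdm6b*. Of these, 9 had a row among the 24113 genes of the table, and the expression of *Suz12* was not analysed here. Polycomb repressive complex 2 (PRC2) methylates a lysine in the tail of histone H3 through *Ezh1* or *Ezh2*, with *Eed* and *Suz12* as partner subunits, and Polycomb repressive complex 1 (PRC1), to which *Bmi1* belongs, acts on chromatin that bears this mark. When DNA is copied, *Uhrf1* recognises the hemimethylated daughter strands and brings in *Dnmt1*, which restores the methyl groups, while *Hells* remodels nucleosomes so that methylation can proceed. In pancreatic islets *Ezh2* and *Bmi1* are known for holding down the *Cdkn2a* locus, which encodes an inhibitor of β-cell division.

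Islets of 8-week-old male wild type Sprague Dawley rats were cultured for 48 h at a glucose concentration of 5.5 mM. The medium held DMSO, the vehicle, at 0.1%, or 3 μM GNF4877, an aminopyrazine that inhibits Dyrk1a and Gsk3b. The islets were then dispersed and captured as single cells on Fluidigm C1 chips, which gave 86 DMSO cells and 84 GNF4877 cells. No animal, culture or further chip is named, which leaves 1 sample per treatment. Cells do not stand in for replicates, differences have no replicate check, and treatment cannot be told apart from the chip or the lane it was sequenced in. Levels are in RPM, read counts divided by a cell's mapped reads and multiplied by 1e6, which are not divided by transcript length and are not compared between genes.

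Cells with 1000 RPM or more of *Ins1*, the insulin gene that marks β-cells, are called Ins1-high, and numbered 78 in DMSO and 59 in GNF4877. They were divided by *Ccnb1*, the cyclin of the G2 to M transition. In DMSO, 77 Ins1-high cells had no *Ccnb1* read and 1 had 49.4 RPM. In GNF4877, 40 had no *Ccnb1* read, 8 lay between 0 and 10 RPM, and 11 had 10 RPM or more, from 19.1 to 912 RPM with a median of 391.6 RPM. These 11 cells are called *Ccnb1*-high below. They were compared with GNF4877 cells without *Ccnb1*, which came from the same treatment, and GNF4877 cells without *Ccnb1* were compared with DMSO cells without *Ccnb1*, which differ in treatment and chip.

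The number of genes read per cell differed between the treatments. The median cell had 1240658 mapped reads and 8932 genes in the DMSO group without *Ccnb1*, 1381746 reads and 6913 genes in the GNF4877 group without *Ccnb1*, and 1583250 reads and 7527 genes in the *Ccnb1*-high group. Fewer genes were thus read in GNF4877 cells although their median depth was higher, and the part of this in the values below was not tested.

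*Ins1* and *Ins2* were read in every Ins1-high cell. The 10 β-cell markers with a row did not go one way between treatments by mean RPM. Of the 9 past the filter on mean RPM described below, 1 was at least 2-fold higher by mean RPM in GNF4877 than in DMSO cells without *Ccnb1* and 3 lower, of which *Ucn3*, a peptide of mature β-cells, also lost 25 points or more in the share of cells with 10 RPM or more. Of all genes, 9.04% were that much higher and 21.1% lower by mean RPM. On the difference of mean log2(RPM + 1) 0 of the 9 markers were past 2-fold higher and 4 lower, against 1.28% and 26.7% of all genes. Their median was -0.76, where that of all genes was -0.52. For *Ccnb1*-high over GNF4877 cells without *Ccnb1*, 2 of 9 were higher by mean RPM, against 17% of all genes. On the difference of mean log2(RPM + 1) 6 were, against 14.8%. The median of *Iapp*, which encodes a peptide secreted with insulin, was 686 RPM in DMSO and 1893 RPM in GNF4877 cells without *Ccnb1*, and that of *Pdx1*, a β-cell transcription factor, 29.1 and 5.53 RPM. *Mafa*, a factor of mature β-cells, was near absent in both treatments, with a read in 5 of 77 DMSO and 0 of 40 GNF4877 cells without *Ccnb1*. The summed β-cell markers, with *Ins1* the most abundant, had a median of 52532 RPM in DMSO and 30144 RPM in GNF4877 cells without *Ccnb1*, and 55702 RPM in *Ccnb1*-high cells. *Gcg*, *Sst* or *Ppy*, the hormones of other islet cell types, reached 1000 RPM in 25 of the 77 DMSO cells without *Ccnb1*, in 1 of the 40 GNF4877 cells without *Ccnb1* and in 1 of the 11 *Ccnb1*-high cells. A cell with a second hormone may be more than 1 cell, and such cells were kept.

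The summed RPM of markers of other cell types is given for DMSO cells without *Ccnb1*, GNF4877 cells without *Ccnb1* and *Ccnb1*-high cells in that order. The 8 α-cell markers had medians of 1749, 1685 and 2179.9 RPM, with *Gcg*, *Pcsk2* and *Gcg* the most abundant. The 4 δ-cell markers had medians of 1.06, 1.70 and 0 RPM, led by *Sst*, *Sst* and *Rbp4*, and *Ppy*, the only PP cell marker, 2.76, 3.11 and 0.621 RPM. *Pcsk2*, a prohormone convertase, is also expressed in β-cells. The highest α-cell sum was 304631 RPM in DMSO and 5320 RPM in GNF4877 cells without *Ccnb1*, and 38588 RPM in *Ccnb1*-high cells. The DMSO value was not a lone one, since other DMSO cells, such as 14 and 30, held 183475 and 244908 RPM of *Gcg*. The 5 duct markers, led by *Krt7*, had medians of 158, 168 and 97.9 RPM, and the 8 immune markers, led by *Cd74*, 1.10, 0.750 and 0.656 RPM. The 8 mesenchymal markers had medians of 1.11, 0.649 and 0.632 RPM, led by *Sparc*, *Pdgfra* and *Pdgfra*, and 1 DMSO cell reached 11522 RPM. The 7 acinar markers, led by *Cela1*, *Ctrb1* and *Cela1*, and the 6 endothelial markers, led by *Esam*, *Esam* and *Pecam1*, had medians of 0 RPM in the 3 groups. The mean sums, the scale on which ratios of mean RPM rest, differed from the medians. They were 46451, 1609 and 5946 RPM for α-cell, 107, 14.6 and 14 RPM for δ-cell and 197, 253 and 193 RPM for duct markers, and 2461, 1042 and 7.13 RPM for *Ppy*. Mesenchymal markers had means of 154, 1.06 and 1.06 RPM, acinar markers 2.25, 0.0668 and 0.418 RPM, and endothelial markers 12.8, 3.23 and 5.02 RPM. Immune markers were higher in both GNF4877 groups by the mean though not by the median, with means of 12.6, 70.5 and 82.6 RPM. Of the 8 immune markers, 3 had a mean of 1 RPM or more over both groups without *Ccnb1*, which 2 reached in 1 group only. By mean RPM, 2 of the 3 were at least 2-fold higher in GNF4877 than in DMSO cells (median log2 ratio 2.40), against 9.04% of all genes. On the difference of mean log2(RPM + 1) 1 was, against 1.28%. Past 2-fold lower by mean RPM in that comparison, against 21.1% of all genes, were 4 of 7 α-cell markers (4 of the 7 reached 1 RPM in 1 group only), 2 of 2 δ-cell, 1 of 4 duct and 2 of 2 endothelial markers (1 through 1 group only), *Ppy*, and 8 of 8 mesenchymal markers, which all reached 1 RPM in DMSO only. Higher were 1 α-cell and 1 duct marker. On the difference of mean log2(RPM + 1) the counts lower were, in that order, 3, 1, 0, 0, 0 and 0, against 26.7% of all genes. The part of these markers in the values below was not tested beyond leaving out cells with a second hormone.

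Members of the set did not move as a block. Between *Ccnb1*-high cells and GNF4877 cells without *Ccnb1*, the ratio of mean RPM, with a pseudocount of 1 RPM, was at least 2-fold higher for 5 of the 9 measured members (*Ezh2*, *Eed*, *Uhrf1*, *Dnmt1* and *Hells*), where 17% of 12527 genes were that much higher. It was at least 2-fold lower for 3 of the 9 (*Ezh1*, *Bmi1* and *Kdm6b*), where 25.4% of genes were. The genes counted had a mean of 1 RPM or more over both groups, which all 9 members met, *Uhrf1* only through the *Ccnb1*-high cells, so that it had to differ. The share of cells with 10 RPM or more was at least 25 percentage points higher for 4 of the 9 (*Ezh2*, *Eed*, *Dnmt1* and *Hells*), against 6.66% of 13402 genes, and at least 25 points lower for *Ezh1*, against 2.04% of genes. With the difference of mean log2(RPM + 1), which gives single high cells less weight, the same 5 members were past 2-fold higher and *Ezh1* alone lower. That scale moved the median of all genes from -0.12 to 0.07, and the calls over all genes from 2124 higher and 3177 lower to 1854 higher and 803 lower.

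Between GNF4877 and DMSO cells without *Ccnb1*, *Hells* alone of the 8 members past the filter was at least 2-fold higher, against 9.04% of 13228 genes, and *Eed* and *Dnmt3a* were at least 2-fold lower, against 21.1% of genes. *Uhrf1* was below the filter. Of the 9 members, 0 gained 25 points in the share of cells with 10 RPM or more, against 0.379% of 15053 genes, and 2 lost as much (*Dnmt1* and *Dnmt3a*), against 11.9% of genes. The difference of mean log2(RPM + 1) moved the median of all genes from -0.15 to -0.52, and the calls over all genes from 1196 higher and 2792 lower to 169 higher and 3532 lower. The median share difference of all genes was -6.10 points, so a lower share in GNF4877 was common.

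**Figure D1:**
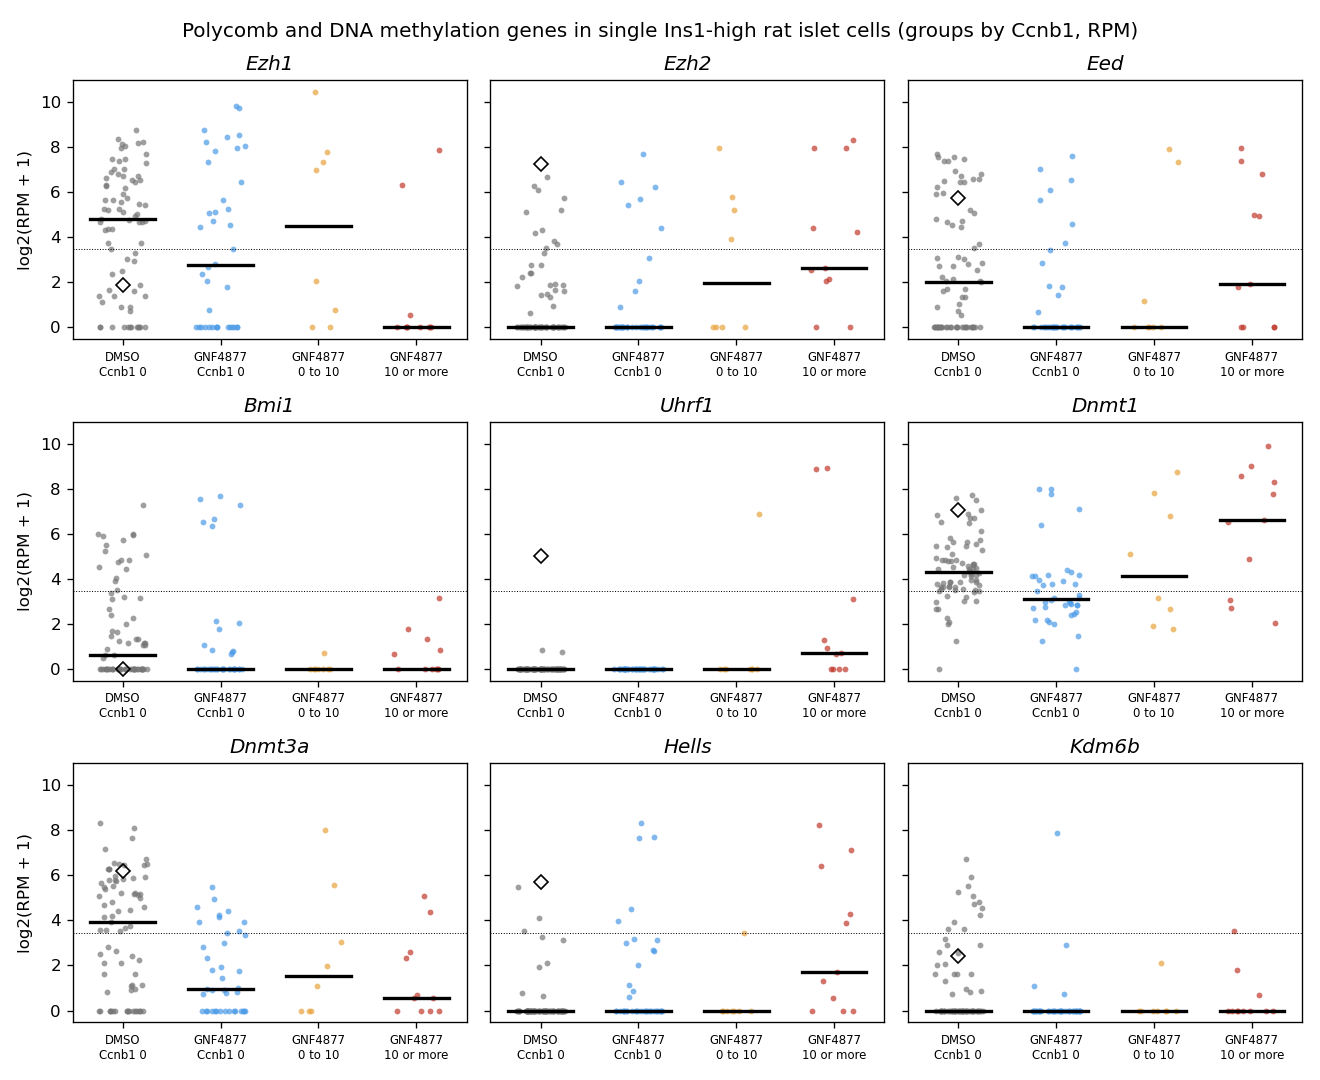
Each point is 1 Ins1-high cell, with log2(RPM + 1) of the gene named above the panel on the vertical axis and cells grouped by treatment and by *Ccnb1* in RPM along the horizontal axis, where black bars are medians, the dotted line is 10 RPM, and the open diamond is the DMSO cell with 49.4 RPM of *Ccnb1*. *Dnmt1* had its highest median, 95.2 RPM, in *Ccnb1*-high cells, while *Uhrf1* had no read in the 40 GNF4877 cells without *Ccnb1*.

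*Ezh2*, the PRC2 methyltransferase typical of dividing cells, had a median of 0 RPM and a highest value of 102 RPM in the 77 DMSO cells without *Ccnb1*, where 28 cells had a read. The 40 GNF4877 cells without *Ccnb1* also had a median of 0 RPM, with a highest value of 207 RPM and a read in 10 cells. In the 11 *Ccnb1*-high cells it ranged from 0 to 313 RPM, with a median of 5.24 RPM and a read in 9 cells. The ranges overlap, and the *Ccnb1*-high group stood apart in how many cells held a read and in 3 cells at 244 to 313 RPM. The share with 10 RPM or more was 14.3% in DMSO, 15% in GNF4877 without *Ccnb1* and 45.5% in *Ccnb1*-high cells (5 of 11, exact Clopper-Pearson 95% interval 16.7% to 76.6%). These intervals, like all below, cover counting error only. The log2 ratio of *Ccnb1*-high cells to GNF4877 cells without *Ccnb1* was 2.57, and stayed between 2.06 and 3.25 when any 1 cell was left out. That of GNF4877 to DMSO cells without *Ccnb1* was 0.85, where the difference of mean log2(RPM + 1) was -0.04. The ratio was 0.17 without GNF4877 cell 72, which held 207 RPM, and 1.14 with every cell that had an *Ins1* read.

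*Ezh1*, the PRC2 methyltransferase usually linked to resting cells, ranged from 0 to 436 RPM in DMSO cells without *Ccnb1*, with a median of 26.5 RPM and a read in 65 of 77 cells. In GNF4877 cells without *Ccnb1* the range was 0 to 913 RPM, the median 5.72 RPM, and 25 of 40 cells had a read. Only 3 of the 11 *Ccnb1*-high cells had a read, at 0.460, 77.2 and 229.9 RPM. The ranges overlap, and the share of cells fell in the order given. Cells with 10 RPM or more made up 64.9% of the DMSO group (53.2% to 75.5%), 45% of the GNF4877 group without *Ccnb1* (29.3% to 61.5%) and 18.2% of the *Ccnb1*-high group (2.28% to 51.8%). After each cell was thinned to 100000 reads, 72%, 51.3% and 18.2% of cells had a read. *Ccnb1*-high cells had a log2 ratio to GNF4877 cells without *Ccnb1* of -1.95, and of -3.68 without cell 40, which held 229.9 RPM. It was 0.07 when the 8 cells with *Ccnb1* between 0 and 10 RPM were added to the *Ccnb1*-high group, of which 1 held 1396 RPM of *Ezh1* and 3 more held 124 to 221 RPM. The share difference of -26.8 points was -13.4 with those cells, -16.3 with every cell that had an *Ins1* read and -23.6 without cells that held a second hormone. Between GNF4877 and DMSO cells without *Ccnb1* the ratio and the share moved in opposite directions, with a log2 ratio of 0.73 and a share difference of -19.9 points, or -26.4 points among cells with 10000 RPM or more of *Ins1*.

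The shares of both enzymes can also be read cell by cell. Of the 11 *Ccnb1*-high cells, 4 held 10 RPM or more of *Ezh2* alone, 1 held *Ezh1* alone, 1 held both and 5 held neither. Among the 40 GNF4877 cells without *Ccnb1* the counts were 2 with *Ezh2* alone, 14 with *Ezh1* alone, 4 with both and 20 with neither. Among the 77 DMSO cells without *Ccnb1* they were 3, 42, 8 and 24. These counts restate the shares given above. As RPM are not compared between genes, the count for one enzyme is not set against that for the other.

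*Eed*, the subunit that binds the methylated histone, was read in 48 of 77 DMSO cells without *Ccnb1* (0 to 206 RPM, median 3.02 RPM), in 13 of 40 GNF4877 cells without *Ccnb1* (0 to 191 RPM, median 0 RPM) and in 7 of 11 *Ccnb1*-high cells (0 to 243 RPM, median 2.76 RPM). *Ccnb1*-high cells were thus near the DMSO cells in their median, and GNF4877 cells without *Ccnb1* lay lowest. Set against GNF4877 cells without *Ccnb1*, the log2 ratio of *Ccnb1*-high cells was 1.79, and 1.16 without cell 36, and the share with 10 RPM or more was 45.5% against 17.5%. That difference of 28 points was 22.5 points without any 1 of the 5 *Ccnb1*-high cells with 10 RPM or more, 19.3 points with any *Ccnb1* read, 24.6 points without cells that held a second hormone and 22.4 points after thinning. Against DMSO the GNF4877 cells without *Ccnb1* had a log2 ratio of -1.01, at the edge of the 2-fold line, which was missed when any of 50 single cells was left out, and was -0.37 with every cell that had an *Ins1* read and -1.50 without GNF4877 cell 72.

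The other PRC2 core subunits with a row, the histone binders *Rbbp4* and *Rbbp7*, also serve other chromatin complexes and were read in all 11 *Ccnb1*-high cells. They lie outside the rule for named genes and, like other genes named below to spell out a count of 5 or fewer, were chosen after their values were seen. Their log2 ratios to GNF4877 cells without *Ccnb1* were 0.53 and 0.89, short of 2-fold. Of 4 PRC2 accessory genes with a row, 3 passed the filter in that comparison and 1, *Aebp2*, was at least 2-fold lower, where 25.4% of all genes were (-1.48, with a difference of mean log2(RPM + 1) of -0.69). In the treatment comparison, against 21.1% of all genes lower by the ratio and 11.9% by the share rule, 1 of 4 was past both calls. This was *Phf1*, a Tudor domain partner of PRC2, which passed the filter only through the DMSO cells, so that its ratio had to be lower. *Phf1* was read in 38 of 77 DMSO cells and in 0 of 40 GNF4877 cells, a count that allows a share of up to 8.81%.

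*Bmi1*, a PRC1 subunit, ranged from 0 to 155 RPM in DMSO cells without *Ccnb1* (median 0.531 RPM, 17 of 77 cells with 10 RPM or more), from 0 to 202 RPM in GNF4877 cells without *Ccnb1* (median 0 RPM, 6 of 40) and from 0 to 7.88 RPM in *Ccnb1*-high cells (median 0 RPM, 0 of 11, which allows up to 28.5%). In *Ccnb1*-high cells the log2 ratio to GNF4877 cells without *Ccnb1* was -3.30, yet 5 of 11 and 14 of 40 cells had a read and the difference of mean log2(RPM + 1) was -0.59. In the treatment comparison these were 0.93 and -0.34, with opposite signs, and over single cells left out the ratio went from 0.58 to 1.20. *Bmi1* also had 1 to 5 reads in each of the 7 cells of the series in which listed transcripts held under 20% of the mapped reads, so a few reads of it are not read here as expression.

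Over the 20 PRC1 genes the result depended on the scale in the same way. Of the 18 that passed the filter in the comparison of *Ccnb1*-high with GNF4877 cells without *Ccnb1*, 8 of them only through the latter and so bound to be lower, 12 were at least 2-fold lower, where 25.4% of all genes were, with a median log2 ratio of -1.29 against -0.12. With any *Ccnb1* read 6 were lower, against 18.1% of all genes, and with a pseudocount of 10 RPM 2 were, against 9.66%. *Scmh1* was past 2-fold higher, but through 1 of the 11 *Ccnb1*-high cells. With the difference of mean log2(RPM + 1), 0 were past 2-fold lower and the median was -0.26, *Scmh1* stood at 0.75, and 1, *Yaf2*, was past 2-fold higher (1.29). Of all genes, 6.41% were lower and 14.8% higher on that scale, and 0 of the 20 passed the share rule in either direction. Between GNF4877 and DMSO cells without *Ccnb1*, 7 of 19 were at least 2-fold lower and 0 higher, against 21.1% and 9.04% of all genes, with a median of -0.71. On the difference of mean log2(RPM + 1) 9 were lower, against 26.7% of all genes, and 3 of the 20 passed the share rule lower, against 11.9%. *Phc2*, a polyhomeotic subunit, and *Scmh1* were lower by both rules. *Phc2* had 10 RPM or more in 57.1% of DMSO and 12.5% of GNF4877 cells, and *Scmh1* in 33.8% and 2.50%.

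*Kdm6b*, the demethylase that opposes PRC2, was seldom read. It reached 105 RPM in DMSO cells without *Ccnb1*, with a read in 28 of 77, and 10.5 RPM in *Ccnb1*-high cells, with a read in 3 of 11. In GNF4877 cells without *Ccnb1* it was read in 4 of 40, and cell 22 alone, at 237 RPM, held 96.7% of the sum. For *Ccnb1*-high cells over GNF4877 cells without *Ccnb1*, the log2 ratio was -1.68 with that cell and 0.88 without it, and the ratio of GNF4877 to DMSO cells without *Ccnb1* was 0.03 with it and -2.53 without it. No direction is drawn from either. Of the 4 erasers with a row, 3 had a ratio at least 2-fold lower in *Ccnb1*-high cells, *Kdm6b*, *Kdm6a* and *Bap1*, against 25.4% of all genes, but 0 of the 4 were past 2-fold lower on the difference of mean log2(RPM + 1). On that scale *Kdm6b* was at 0.23 and *Bap1* at 0.18, and their shares with 10 RPM or more were 6.59 and 16.4 points higher, so no direction is drawn for the list either. In the treatment comparison 0 of the 4 passed 2-fold by the ratio, and 2 were past it lower on the difference of mean log2(RPM + 1), against 26.7% of all genes, and 1, *Kdm6a*, by the share rule.

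*Dnmt1*, the maintenance methyltransferase, ranged from 0 to 209 RPM in DMSO cells without *Ccnb1*, with a median of 18.7 RPM, and was read in 76 of the 77. In GNF4877 cells without *Ccnb1* it ranged from 0 to 251 RPM, with a median of 7.59 RPM and a read in 39 of 40. *Ccnb1*-high cells held 3.16 to 952 RPM, with a median of 95.2 RPM and a read in all 11. Reads were thus present nearly everywhere, and the groups, whose ranges overlap, differed in amount. The log2 ratio of *Ccnb1*-high to GNF4877 cells without *Ccnb1* was 2.90, within 2.38 to 3.18 over single cells left out, and cells with 10 RPM or more made up 72.7% (39% to 94%) against 40% (24.9% to 56.7%). The share difference of 32.7 points was 23.9 with every cell that had an *Ins1* read and 23.2 with any *Ccnb1* read. *Dnmt1* also had 2 to 14 reads in 5 of the 7 cells with under 20% of reads on listed transcripts.

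Between treatments the share of cells with 10 RPM or more of *Dnmt1* was 83.1% in DMSO (72.9% to 90.7%) and 40% in GNF4877 cells without *Ccnb1*, whereas the log2 ratio of the means was -0.16. Most GNF4877 cells were lower while a few high cells kept the mean near that of DMSO. After thinning to 100000 reads it was read in 84% of 75 DMSO cells and 53.8% of 39 GNF4877 cells. The 5 DMSO cells with *Gcg* but not *Ins1* at 1000 RPM or more had a median of 20.7 RPM and the 18 such GNF4877 cells 14.3 RPM.

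*Uhrf1*, which directs *Dnmt1* to newly copied DNA, was seldom read outside *Ccnb1*-high cells. In DMSO cells without *Ccnb1* it had 1 read in each of 2 of the 77 cells, and in GNF4877 cells without *Ccnb1* 0 of 40 cells had a read, which allows a share of up to 8.81%. Among *Ccnb1*-high cells 7 of 11 had a read (63.6%, 30.8% to 89.1%), with a median of 0.621 RPM, and cells 31 and 25 held 482 and 467 RPM. The remaining *Ccnb1*-high cells held 7.60 RPM or less. The mean of *Ccnb1*-high cells was 87.3 RPM, with 50.2% of the sum in cell 31, against 0 RPM in GNF4877 cells without *Ccnb1*. The fold between them has no fixed size, and *Uhrf1* passed the filter only through *Ccnb1*-high cells. With 3 reads assumed over the other group (0.0577 RPM), a floor set here and not a bound, it would be 1512-fold. With the pseudocount the log2 ratio was 6.46, and 5.61 without cell 31. The share with 10 RPM or more was 18.2%, short of the 25 points.

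*Hells*, the remodeller, was read in 9 of 77 DMSO cells without *Ccnb1* (up to 43.4 RPM), in 14 of 40 GNF4877 cells without *Ccnb1* (up to 323 RPM) and in 8 of 11 *Ccnb1*-high cells (up to 305 RPM, median 2.29 RPM). It was the only measured member past 2-fold higher in both comparisons. The log2 ratio of *Ccnb1*-high to GNF4877 cells without *Ccnb1* was 1.30, but 0.35 without cell 19, which held 305 RPM. The share with 10 RPM or more was 45.5% against 12.5%. With any *Ccnb1* read both calls were lost, at a log2 ratio of 0.56 and a share difference of 13.8 points in place of 33. Against DMSO, GNF4877 cells without *Ccnb1* had a log2 ratio of 3.26, and of 2.60 without GNF4877 cell 26, where the shares were 12.5% (4.19% to 26.8%) and 3.90% (0.811% to 11%), and the difference of mean log2(RPM + 1) was 0.96. The value of *Hells* is uncertain, because its reads ran in parallel with those of a separate row, *LOC100911660*, with a median of 1.05 reads there per *Hells* read over the 27 cells with 5 or more reads of each. Summing both rows, a choice made after seeing the data, gave a share difference of 23 points in place of 33 between *Ccnb1*-high and GNF4877 cells without *Ccnb1*.

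*Dnmt3a*, which adds methyl groups de novo, ranged from 0 to 316 RPM in DMSO cells without *Ccnb1* (median 14.1 RPM, 44 of 77 with 10 RPM or more), from 0 to 44.1 RPM in GNF4877 cells without *Ccnb1* (median 0.921 RPM, 9 of 40) and from 0 to 32.7 RPM in *Ccnb1*-high cells (median 0.477 RPM, 2 of 11). Both GNF4877 groups lay below DMSO in median and mean, with overlapping ranges, and their log2 ratio to each other was -0.07. That ratio was 1.57 when cells with any *Ccnb1* read were taken, of which cell 38 held 259.6 RPM, and 1.02 after thinning. It was -0.82 without *Ccnb1*-high cell 36, and also -0.82 with RPM taken over the reads on listed transcripts. Against DMSO, GNF4877 cells without *Ccnb1* had a log2 ratio of -2.40, within -2.61 to -2.25 over single cells left out. The share difference was -34.6 points, and -21.2 points without cells that held a second hormone.

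Among the 10 writers and cofactors of DNA methylation, *Dnmt1*, *Uhrf1* and *Hells* were the 3 of 8 past the filter that were at least 2-fold higher in *Ccnb1*-high than in GNF4877 cells without *Ccnb1*, against 17% of all genes. On the difference of mean log2(RPM + 1) 4 were, against 14.8%, with *Uhrf2*, a relative of *Uhrf1*, at 1.13 and 26.4 points higher in its share. *Dnmt3b*, a further de novo enzyme, had a log2 ratio of -3.18, but it passed the filter only through the GNF4877 cells without *Ccnb1*, so that it had to be lower, and its difference of mean log2(RPM + 1) was -0.82. *Uhrf2* was lower by both rules between treatments, with 10 RPM or more in 41.6% of DMSO and 10% of GNF4877 cells without *Ccnb1*, and stood at 36.4% in *Ccnb1*-high cells. Of the 4 genes of active demethylation, 3 were at least 2-fold lower in *Ccnb1*-high cells by the ratio, *Tet2*, *Tet3* and *Tdg*, against 25.4% of all genes. That count was 1, *Tet2*, on the difference of mean log2(RPM + 1), against 6.41% of all genes. It was 1 with every cell that had an *Ins1* read, against 21.2%, and 1 with any *Ccnb1* read, against 18.1%. *Tet1* had a log2 ratio of 1.43 from a read in 1 of the 11 *Ccnb1*-high cells, and a difference of mean log2(RPM + 1) of 0.32. *Tet2*, which oxidises methylcytosine, was also lower by both rules between treatments, with a log2 ratio of -1.25. *Tet3* and *Tdg* did not pass 2-fold there by the ratio, but 3 of the 4, *Tet2*, *Tet3* and *Tdg*, were lower by the share rule, against 11.9% of all genes, and the same 3 on the difference of mean log2(RPM + 1), against 26.7%. Of the 7 methyl-CpG readers, 2 of the 6 past the filter, *Mbd2* and *Zbtb38*, were at least 2-fold higher in *Ccnb1*-high cells by the ratio, against 17% of all genes, and 0 lower. Only *Mbd2* was past 2-fold on the difference of mean log2(RPM + 1), where *Zbtb38* stood at 0.85. Between treatments *Mbd2* and *Zbtb38* were at least 2-fold lower by the ratio. No direction is drawn for *Mbd1*, whose log2 ratio was 1.24 while its difference of mean log2(RPM + 1) was -1.02 and its share with 10 RPM or more was 55.8% in DMSO and 30% in GNF4877 cells. *Mbd2*, which recruits a deacetylase complex, was lower by both rules, with 10 RPM or more in 84.4% of DMSO and 32.5% of GNF4877 cells.

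Known Polycomb targets of islets were chosen as a list of 3 genes. *Cdkn2a* and *Cdkn1c* had no read in GNF4877 cells without *Ccnb1* or in *Ccnb1*-high cells, and each had a read in 1 DMSO cell without *Ccnb1*. *Cdkn2b*, the neighbour of *Cdkn2a*, was read in 74 of 77 DMSO cells, 37 of 40 GNF4877 cells without *Ccnb1* and 11 of 11 *Ccnb1*-high cells. Its mean was 15.2, 3.69 and 5.83 RPM in that order, and the log2 ratio of GNF4877 to DMSO cells without *Ccnb1* was -1.79.

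Lists of cell cycle genes were set beside these values. Of 37 S phase genes past the filter, 32 were at least 2-fold higher in *Ccnb1*-high than in GNF4877 cells without *Ccnb1*, with a median log2 ratio of 2.39, against 17% of all genes and their median of -0.12. So were 33 of 33 G2 and M phase genes, with a median of 5.57. Since *Ccnb1* is itself a gene of G2 and M phase, the latter is no independent result. The filter was passed through 1 group only by 2 of the S phase and 11 of the G2 and M phase genes, which had to differ. Beside the S phase median, the log2 ratios of the 5 members past 2-fold higher were 1.30 for *Hells*, 1.79 for *Eed*, 2.57 for *Ezh2*, 2.90 for *Dnmt1* and 6.46 for *Uhrf1*. Between GNF4877 and DMSO cells without *Ccnb1*, 17 of 34 S phase genes were higher and 3 lower by the ratio, against 9.04% and 21.1% of all genes. Of the 34, 5 passed the filter through 1 group only, so that their direction was fixed, and they are all among the genes called, 3 of them higher and 2 lower. The count also rested on the scale. On the difference of mean log2(RPM + 1) 1 was past 2-fold higher and 1 lower, against 1.28% and 26.7% of all genes. The S phase median there was 0.04, where that of all genes was -0.52. By the share rule 0 of the 38 passed in either direction, against 0.379% of all genes higher and 11.9% lower. Of 19 G2 and M phase genes past the filter, 11 of them through 1 group only, 12 were higher and 3 lower by the ratio, with a median of 1.68. On the difference of mean log2(RPM + 1) 2 were higher and 0 lower, against 1.28% and 26.7% of all genes. The median of the list there was 0.33.

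Members were also counted cell by cell. The 4 counted are members already seen to be higher in *Ccnb1*-high cells, *Uhrf1* through that group only, and *Eed*, also higher there, was not counted, so the numbers restate that difference and do not add to it. Of the 11 *Ccnb1*-high cells, 6 held 10 RPM or more of at least 2 of *Ezh2*, *Uhrf1*, *Dnmt1* and *Hells* (54.5%, 23.4% to 83.3%), and 0 held none of them. Among the 40 GNF4877 cells without *Ccnb1*, 6 held at least 2 (15%, 5.71% to 29.8%) and 20 held none, and among the 77 DMSO cells 10 held at least 2 (13%, 6.41% to 22.6%) and 10 held none. *Dnmt1* and *Hells* were both at 10 RPM or more in 5 of the 11 *Ccnb1*-high cells and in 4 of the 40.

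The *Ccnb1*-high cells were not alike. Cell 96, which had the highest S phase sum of the 11 (9796 RPM, with 2690.5 RPM over the G2 and M phase list), held 375 RPM of *Dnmt1*, 84.4 RPM of *Hells*, 7.60 RPM of *Uhrf1* and 3.38 RPM of *Ezh2*. Cell 25 (8483 and 1139.9 RPM) held 512 RPM of *Dnmt1*, 467 RPM of *Uhrf1* and 139 RPM of *Hells*, and no *Ezh2*. Cell 19 (8268 and 2030.2 RPM) held 316 RPM of *Dnmt1* and 305 RPM of *Hells*, with no *Uhrf1*. *Dnmt1* and *Hells* thus stood high in these cells, while *Ezh2* did not pass 4.78 RPM in any of the 3.

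Among *Ccnb1*-high cells, the 3 with the highest G2 and M phase sums lay low in *Dnmt1* for the group. Cell 16 (19156 RPM, with 2885 RPM over the S phase list) held 313 RPM of *Ezh2*, 5.53 RPM of *Dnmt1*, 0.921 RPM of *Uhrf1* and no *Hells*. Cell 40 (17989.6 and 3340.0 RPM) held 244 RPM of *Ezh2*, 3.16 RPM of *Dnmt1* and neither *Uhrf1* nor *Hells*. Cell 30 (10482 and 834 RPM) held 20.4 RPM of *Ezh2*, 7.33 RPM of *Dnmt1* and neither of the others. The 3 lowest values of *Dnmt1* in the group were those of these 3 cells. The pattern did not hold further down, since cell 17, next in order (8325 and 6702 RPM), held 213 RPM of *Dnmt1* and 5.24 RPM of *Ezh2*. Over the 59 GNF4877 Ins1-high cells, Pearson r of *Dnmt1*, on the scale of log2(RPM + 1), was 0.557 with the G2 and M phase sum and 0.582 with the S phase sum. Cell 31 (3598 and 5807 RPM) held *Ezh2*, *Uhrf1* and *Dnmt1* together, at 246, 482 and 952 RPM, and is also the *Ccnb1*-high cell with a second hormone, at 37011 RPM of *Gcg*. These cells were picked out after the values were seen, and no test was made of them.

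Members were also high in cells outside the group, with higher or lower cell cycle sums. GNF4877 cell 95, with 6.85 RPM of *Ccnb1* and the highest S phase sum of all Ins1-high cells, 10876 RPM, was the only cell between 0 and 10 RPM of *Ccnb1* with *Uhrf1*, at 116 RPM, beside 221 RPM of *Dnmt1* and 239.7 RPM of *Eed*. Cell 26, without *Ccnb1* and with an S phase sum of 4499 RPM, held 323 RPM of *Hells*, 251 RPM of *Dnmt1* and 86.3 RPM of *Ezh2*. In DMSO, cell 46, the only Ins1-high cell with *Ccnb1*, held 149 RPM of *Ezh2*, 132 RPM of *Dnmt1*, 51.1 RPM of *Hells* and 30.9 RPM of *Uhrf1*, and 2.64 RPM of *Ezh1*. That cell also held 15343 RPM over the 8 mesenchymal markers, led by *Col1a1* at 3470.2 RPM, beside 11547 RPM of *Ins1*, and is not called a β-cell here. DMSO cell 21 had no *Ccnb1* but an S phase sum of 5844 RPM, 209 RPM of *Dnmt1* and 43.4 RPM of *Hells*, and held 184144 RPM of *Gcg*. Other cells held *Dnmt1* or *Ezh2* at lower sums. GNF4877 cell 32, with 1.46 RPM of *Ccnb1*, held 425 RPM of *Dnmt1* and 245 RPM of *Ezh2* at 689 RPM over the S phase and 40.3 RPM over the G2 and M phase list. GNF4877 cell 13, without *Ccnb1*, held 218 RPM of *Dnmt1* at an S phase sum of 268 RPM, and DMSO cell 58 180.2 RPM at 616 RPM. GNF4877 cell 72, without *Ccnb1*, held 207 RPM of *Ezh2* at 273 RPM. A high level of *Dnmt1* or *Ezh2* was thus not limited to cells with high cell cycle sums.

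**Figure D2:**
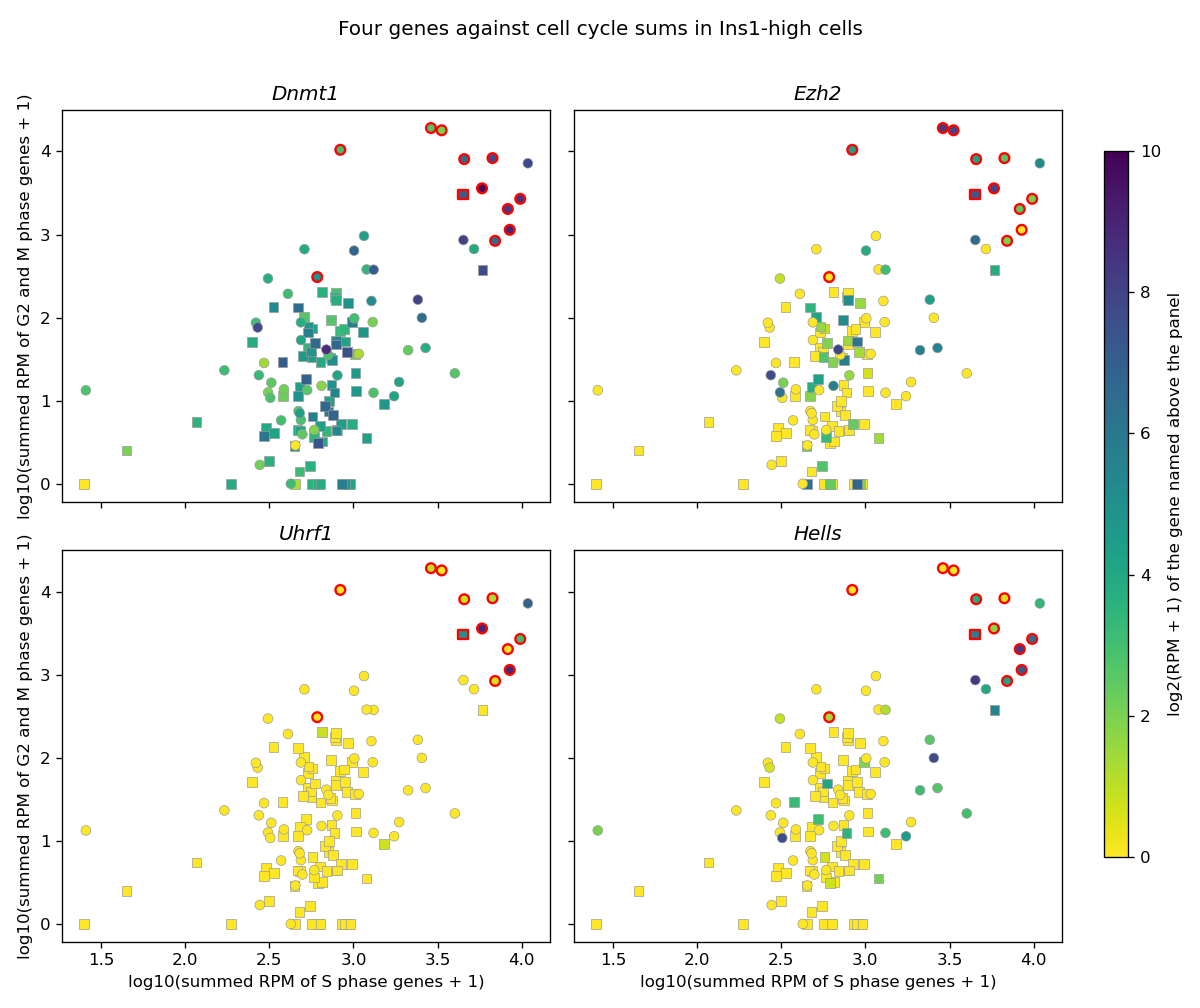
Each point is 1 Ins1-high cell (squares DMSO, circles GNF4877), with the summed RPM of the S phase list on the horizontal and of the G2 and M phase list on the vertical axis, both as log10(RPM + 1), darker colour for a higher log2(RPM + 1) of the gene named, and a red edge at 10 RPM or more of *Ccnb1*. *Dnmt1* is dark in many cells at the right, but also in cells further left such as GNF4877 cell 32 (425 RPM), and light in the 3 cells highest on the vertical axis (3.16 to 7.33 RPM), in which *Ezh2* was 20.4 to 313 RPM.

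Outside the Ins1-high cells, 3 GNF4877 cells had 10 RPM or more of *Ccnb1*. Cell 20, with 357885 RPM of *Gcg*, held 121 RPM of *Dnmt1*, 118.7 RPM of *Hells*, 103 RPM of *Dnmt3a*, 28.9 RPM of *Ezh2* and 3.91 RPM of *Uhrf1*. Cell 15, with none of *Ins1*, *Gcg* and *Sst* above 51 RPM, held 209 RPM of *Dnmt1* and 94.4 RPM of *Dnmt3a*. Cell 49, with 35288 RPM of *Sst*, held 117 RPM of *Eed*, 1.90 RPM of *Dnmt1* and no *Ezh2*. *Dnmt3a* in cells 20 and 15 was thus above the 32.7 RPM that was highest among the 11 Ins1-high *Ccnb1*-high cells.

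The genes most like each member over the 59 GNF4877 Ins1-high cells, by Pearson r of log2(RPM + 1) among 8635 genes read in 30% of them or more, are given as a description. Cells of 1 treatment share a chip and differ in depth and genes read, and a weak r in sparse reads is no finding. For *Dnmt1* they were *Cenpq* (0.620) and *Tk1* (0.615), for *Uhrf1* *Mcm5* (0.635), *E2f8* (0.619) and *Osgep* (0.610), and for *Hells*, after *LOC100911660* (0.979), *Mcm3* (0.665) and *Gmnn* (0.623). *Tk1* serves nucleotide synthesis, *Mcm3* and *Mcm5* belong to the replicative helicase, and *Gmnn* restrains its loading. Over the 78 DMSO Ins1-high cells the same r was 0.376 and 0.209 for the genes of *Dnmt1*, 0.533, 0.310 and 0.131 for those of *Uhrf1*, and 0.503 and 0.505 for *Mcm3* and *Gmnn*. *Ezh2* came with *Golim4* (0.586), *Cenpq* (0.581) and *Hmmr* (0.565), with 0.115, 0.242 and 0.209 in DMSO. *Hmmr* is a gene of the mitotic spindle.

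For the genes of the remaining members, r in DMSO did not pass 0.268. *Eed* had *Fv1* (0.566), *Zfp367* (0.535) and *Irs2* (0.517), with 0.00523, 0.205 and 0.128 in DMSO. *Kdm6b* had *Stx6* (0.549), *Gstcd* (0.527) and *LOC100912312* (0.514), with -0.147, -0.00836 and 0.0772 in DMSO. *Dnmt3a*, *Ezh1* and *Bmi1* had no r above 0.527. The genes were *Kdm4a* (0.527), *Cyp2u1* (0.476) and *Igf1r* (0.470) for *Dnmt3a*, with 0.0877, 0.146 and 0.144 in DMSO. For *Ezh1* they were *Scaper* (0.499), *LOC100364226* (0.487) and *Aptx* (0.455), with 0.213, 0.268 and 0.151, and for *Bmi1* *Ppm1a* (0.494), *Snap29* (0.481) and *LOC689665* (0.474), with 0.00811, -0.124 and 0.00319.

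Several members were higher in *Ccnb1*-high cells by the group mean, though not always in the same cells. Over the 59 GNF4877 Ins1-high cells, pairs of these 5 members had r from 0.082 (*Ezh2* and *Hells*) to 0.544 (*Uhrf1* and *Dnmt1*). Promoters of the members were searched for short words known from cell cycle genes, on both strands. RefSeq windows of 300 bases on GRCr8, from 250 bases before the gene start, were given for 9 of the 10 members, which leaves *Ezh1*. *Uhrf1* has 3 windows, of which the first and the second overlap. An E2F word (TTTCCCGC, TTTGGCGC, TTTCGCGC or TTTGCCGC) was found in 2.14% of all 33469 windows, or in a window of 2.37% of 27457 genes. It was in a window of 4 of the 8 measured members with a window, *Dnmt1*, *Uhrf1*, *Hells* and *Ezh2*. *Suz12* also held such a word, and *Eed*, *Bmi1*, *Dnmt3a* and *Kdm6b* did not. The CHR word TTTGAA was in 18.3% of all windows (19.4% of genes) and, among the members, in that of *Suz12*. CCAAT was in 37.5% of all windows (39.6% of genes) and in those of *Dnmt1*, *Uhrf1*, *Ezh2*, *Eed* and *Suz12*. A word is a description of the sequence and not a site, and its absence says only that these letters are not in the window. Whether a word bears on the level of a gene was not tested.

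The windows of the 4 measured members with an E2F word are printed 5′ to 3′ on the gene's strand, with that word in capitals, because these 4 were among the 5 members past 2-fold higher in *Ccnb1*-high cells. The *Dnmt1* window lies at chr8:27762792-27763091 on the minus strand, that of *Ezh2* at chr4:77687134-77687433 on the minus strand, that of *Hells* at chr1:246113879-246114178 on the plus strand and the third of *Uhrf1* at chr9:1222936-1223235 on the plus strand. Counted along the printed sequence, the word begins 29 bases before the start in *Hells*, at base 10 from the start in *Ezh2* and, on the opposite strand, at base 26 in *Dnmt1*. *Uhrf1* has a word on the opposite strand 193 bases before the start and a word on its own strand 99 bases before it. None of these E2F words overlaps a CCAAT or CHR word.
Dnmt1: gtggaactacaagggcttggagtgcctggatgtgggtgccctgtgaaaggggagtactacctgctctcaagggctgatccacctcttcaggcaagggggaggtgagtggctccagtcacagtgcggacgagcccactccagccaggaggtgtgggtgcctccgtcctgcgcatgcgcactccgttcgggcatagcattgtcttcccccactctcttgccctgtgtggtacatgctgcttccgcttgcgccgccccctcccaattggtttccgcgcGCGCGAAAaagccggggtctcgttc
Ezh2: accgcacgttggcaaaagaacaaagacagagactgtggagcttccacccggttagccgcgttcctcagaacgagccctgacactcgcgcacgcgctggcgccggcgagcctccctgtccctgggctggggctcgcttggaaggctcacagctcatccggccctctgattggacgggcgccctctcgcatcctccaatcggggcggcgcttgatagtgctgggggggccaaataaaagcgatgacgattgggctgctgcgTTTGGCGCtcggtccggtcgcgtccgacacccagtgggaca
Hells: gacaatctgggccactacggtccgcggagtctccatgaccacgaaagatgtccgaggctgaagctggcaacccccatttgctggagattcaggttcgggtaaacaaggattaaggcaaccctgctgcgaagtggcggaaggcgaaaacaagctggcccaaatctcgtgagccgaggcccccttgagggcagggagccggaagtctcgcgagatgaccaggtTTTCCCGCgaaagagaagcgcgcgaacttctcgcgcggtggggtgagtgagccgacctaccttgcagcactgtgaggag
Uhrf1: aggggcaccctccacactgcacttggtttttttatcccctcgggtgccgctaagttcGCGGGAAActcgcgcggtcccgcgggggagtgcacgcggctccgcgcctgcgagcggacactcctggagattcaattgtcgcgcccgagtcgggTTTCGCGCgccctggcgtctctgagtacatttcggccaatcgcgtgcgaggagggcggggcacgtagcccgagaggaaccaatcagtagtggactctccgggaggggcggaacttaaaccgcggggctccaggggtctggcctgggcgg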

How the data were processed

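The authors aligned the reads and deposited RPM per transcript, which are reads scaled to the mapped reads of each cell. The submitters' processing notes name CASAVA 1.8.2, BWA 0.5.9 and SAMtools 0.1.19, and the study's methods name a mouse transcriptome although the transcripts listed are rat RefSeq. The authors kept cells with over 100000 mapped reads and a single cell per port. Doublets were not removed further. Values of 0.01, 69.7% of all, stood for no read and were set to 0. The 27586 transcripts were summed to 24113 genes. Mapped reads per Ins1-high cell ranged from 241604 to 2499138.

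With 1 sample per treatment no test was made. Ratios of mean RPM were called at 2-fold, and shares of cells with 10 RPM or more at 25 points. Scripts were tested on simulated counts that varied between cells by counting error only. Such counts check the code and do not show how reliable a 2-fold call is in these cells. The members and gene lists were chosen with earlier results of these data known. Named genes are the members, other listed Polycomb and DNA methylation genes past both calls, the 3 most similar genes per member, and the most abundant marker of each list. Some results that fall under this rule or these lists are not reported here. Alternatives were the pseudocount, the scale, cell and read cut-offs, thinning and single cells left out. Values were computed in Python 3.11.15 with pandas 2.3.3, numpy 2.4.6 and scipy 1.17.1, and plots drawn with matplotlib 3.10.9.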

Additional observations from a re-analysis of the deposited data

How the results depend on the processing

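No paired analysis was possible because there is 1 sample per treatment, and the cell numbers that both treatments use do not tie a cell of one to a cell of the other. Values below are for *Ccnb1*-high over GNF4877 cells without *Ccnb1* first. The log2 ratio of *Ezh1* changed sign to 0.070 with any *Ccnb1* read, and that of *Kdm6b* to 0.23 as a difference of mean log2(RPM + 1) and to 0.88 without cell 22, within -2.45 to 0.88 over single cells left out. Members past 2-fold lower numbered 1 in place of 3 on the difference of mean log2, against 6.41% of all genes in place of 25.4%. Members past the share difference numbered 1 in place of 4 higher with any *Ccnb1* read, and 0 in place of 1 lower with any *Ins1* read, with any *Ccnb1* read or without cells that held a second hormone. Under the alternatives, the part of all genes past the share difference was not computed, nor that past 2-fold with single cells left out.

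Between GNF4877 and DMSO cells without *Ccnb1*, 1 member was past 2-fold higher. This was 0 on the difference of mean log2, 3 with *Ins1* of 10000 RPM or more and after thinning, 2 with any *Ins1* read and without a second hormone, and 1 to 3 with 1 cell left out. Members past 2-fold lower numbered 1 in place of 2 with a pseudocount of 10 RPM, with *Ins1* of 10000 RPM or more, with any *Ins1* read and after thinning, and 1 to 2 with 1 cell left out. Past the share difference lower there was 1 in place of 2 without a second hormone and 3 with *Ins1* of 10000 RPM or more, where *Ezh1* was added. The cause was not tested. Leaving out cells with under 20% listed reads, chosen after seeing the data, moved none of the 8 counts. With 1 sample per treatment and 11 *Ccnb1*-high cells, single cells set several ratios, and a member with few reads cannot be told from an absent one in a given cell.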
